A study of Mus musculus with 18 samples.

Results

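The miR-106b~25 cluster is a group of 3 miRNA hairpins, mir-106b, mir-93 and mir-25, that lie inside the mouse gene Mcm7. Its members were taken by name, as every deposited row for the hairpins mmu-mir-106b, mmu-mir-93 and mmu-mir-25 and for their mature arms, such as mmu-miR-25-5p and mmu-miR-25-3p (the species prefix is left out from here on). The rule found 9 of the 2134 rows. These were 3 hairpins, for which mir is written, and 6 mature miRNAs, for which miR is written, and all 9 had at least 10 reads over the samples and were tested.

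The small RNA libraries came from 18 samples of BV-2 cells, an immortalized line of mouse microglia, the resident immune cells of the brain. The 6 groups of 3 samples each were untreated control cells, cells given LPS at 100 ng/ml for 4 h, cells given CBD at 10 μM for 6 h, cells given THC at 10 μM for 6 h, and cells given CBD (CBD+LPS) or THC (THC+LPS) at the same dose for 2 h before the same LPS treatment. LPS is lipopolysaccharide, a component of the bacterial outer membrane that is widely used to activate microglia, while CBD stands for cannabidiol and THC for tetrahydrocannabinol, both from the cannabis plant. A single cell line was used, the samples carry the numbers 22 to 39 in their labels, and the labels do not say whether samples of a group came from separate cultures, so that p-values measure the spread between these samples, which may be technical.

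The host gene Mcm7 encodes a subunit of the helicase that unwinds DNA at the start of replication, and the cluster is known to be transcribed together with it in dividing cells. Each hairpin is cut from the transcript and then trimmed to a short duplex, from which a strand of either arm, 5p or 3p, is loaded into the silencing complex, and the strand that accumulates less is usually degraded. The seed, bases 2 to 8 of the loaded strand, pairs with target mRNAs. miR-106b-5p and miR-93-5p are known to repress the cell cycle inhibitor Cdkn1a, and miR-25-3p the pro-apoptotic gene Bcl2l11.

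The mature sequences are printed to show which members share a seed and hence a target class. They were read from the RefSeq table of mouse miRNAs on GRCm38.p6, in which all 9 members were found, with the seed in capitals.

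miR-106b-5p: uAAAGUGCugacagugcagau

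miR-93-5p: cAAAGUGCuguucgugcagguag

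miR-25-3p: cAUUGCACuugucucggucuga

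miR-106b-3p: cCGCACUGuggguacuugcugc

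miR-93-3p: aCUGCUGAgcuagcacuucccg

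miR-25-5p: aGGCGGAGacuugggcaauugc

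The seed AAAGUGC was shared by miR-106b-5p and miR-93-5p, which differed by an edit distance of 7 bases over their whole length. The seed AUUGCAC of miR-25-3p was a different one. Among the 1679 mature miRNAs of the table, AAAGUGC was carried by 5 miRNAs outside the cluster, miR-17-5p, miR-20a-5p, miR-20b-5p, miR-106a-5p and miR-6383, and AUUGCAC by 5, miR-92a-3p, miR-92b-3p, miR-32-5p, miR-363-3p and miR-367-3p. The seeds of miR-106b-3p, miR-93-3p and miR-25-5p were found in no other miRNA of the table.

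The hairpin of mir-25 is printed because the results turn on its arms, with miR-25-5p and then miR-25-3p in capitals.

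mir-25: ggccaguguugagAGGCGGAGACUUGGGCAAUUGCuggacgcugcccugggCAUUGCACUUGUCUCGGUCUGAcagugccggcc

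It is 84 bases long, with 16 bases between the arms. All 3 hairpins lie on the minus strand of chromosome 5 within 498 bases, at chr5:138165321-138165404 for mir-25, chr5:138165523-138165610 for mir-93 and chr5:138165737-138165818 for mir-106b (GRCm38.p6), so that mir-106b comes first in the direction of transcription. In the GENCODE annotation of the same build they are in intron 13 of the principal protein-coding transcript of Mcm7, which has 15 exons. The 748 bases of this intron hold the whole cluster, and 1 non-coding transcript of Mcm7 that retains part of the intron covers mir-25 and mir-93 with an exon.

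The libraries held between 442718 and 1057147 reads on miRNA rows, with a median of 773271. Values are given in CPM, which here are reads scaled to a common library total with edgeR's TMM factors, and 3 reads, the floor for counting error alone, were worth 2.98 to 6.38 CPM. The sequenced libraries showed myeloid miRNAs, with all 5 markers of that list detected and summing to 14642 to 34388 CPM, while the lists for liver, muscle and erythroid cells summed to at most 4.74 CPM in any library. Of the neuronal list, miR-124-3p, the defining marker, had 4 reads in all and miR-9-5p had 118, but miR-128-3p was at 409 to 651 CPM, and the list summed to 452 to 666 CPM without LPS and 420 to 574 CPM with LPS. The epithelial list summed to 6179 to 9246 CPM without LPS and 5638 to 9186 CPM with LPS, with miR-141-3p at 5525 to 8978 CPM. The part of these miRNAs in the results was not tested. Libraries stood apart in 2 ways. Replicate pairs within samples 28 to 39 had chi-square values per degree of freedom of 3.04 to 9.73, apart from control 28 and control 34 with 51.6, and pairs of a sample from 22 to 27 with a later one had 41.3 to 98.6. The hairpin rows mir-6236 and mir-6243, together with mir-6240, took between 0.151% and 4.55% of a library, a share called library composition here, and it was lowest in control 22, CBD 30, CBD 36 and THC+LPS 27, with 0.204%, 0.160%, 0.151% and 0.361%.

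The cluster took 1.42% to 1.92% of the reads of a library. The mature miRNAs, at 21 to 23 bases, are nearly equal in length, so that their CPM levels can be set side by side. miR-25-3p was the most abundant, with a mean of 8695 CPM over the 18 samples and 53.3% of the reads of the cluster, followed by miR-93-5p with 5885 CPM and 36.4%. miR-106b-5p had a mean of 896 CPM and miR-106b-3p of 466 CPM. The other arms of the abundant miRNAs were scarce, with 103 CPM for miR-25-5p and 66.1 CPM for miR-93-3p. By mean CPM, miR-25-3p ranked 25 and miR-25-5p ranked 247 among the 2134 rows.

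The hairpin rows, which are 82 to 88 bases long, were low, with means of 112 CPM for mir-93, 43.1 CPM for mir-106b and 9.67 CPM for mir-25. The row of mir-25 had 128 reads over all samples against 117127 for miR-25-3p, so that the hairpin rows do not contain the reads of their arms. The coefficient of variation over the 18 samples was lowest for miR-25-3p, at 12.2%, and highest for miR-25-5p, at 55.3%.

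**Figure D1:**
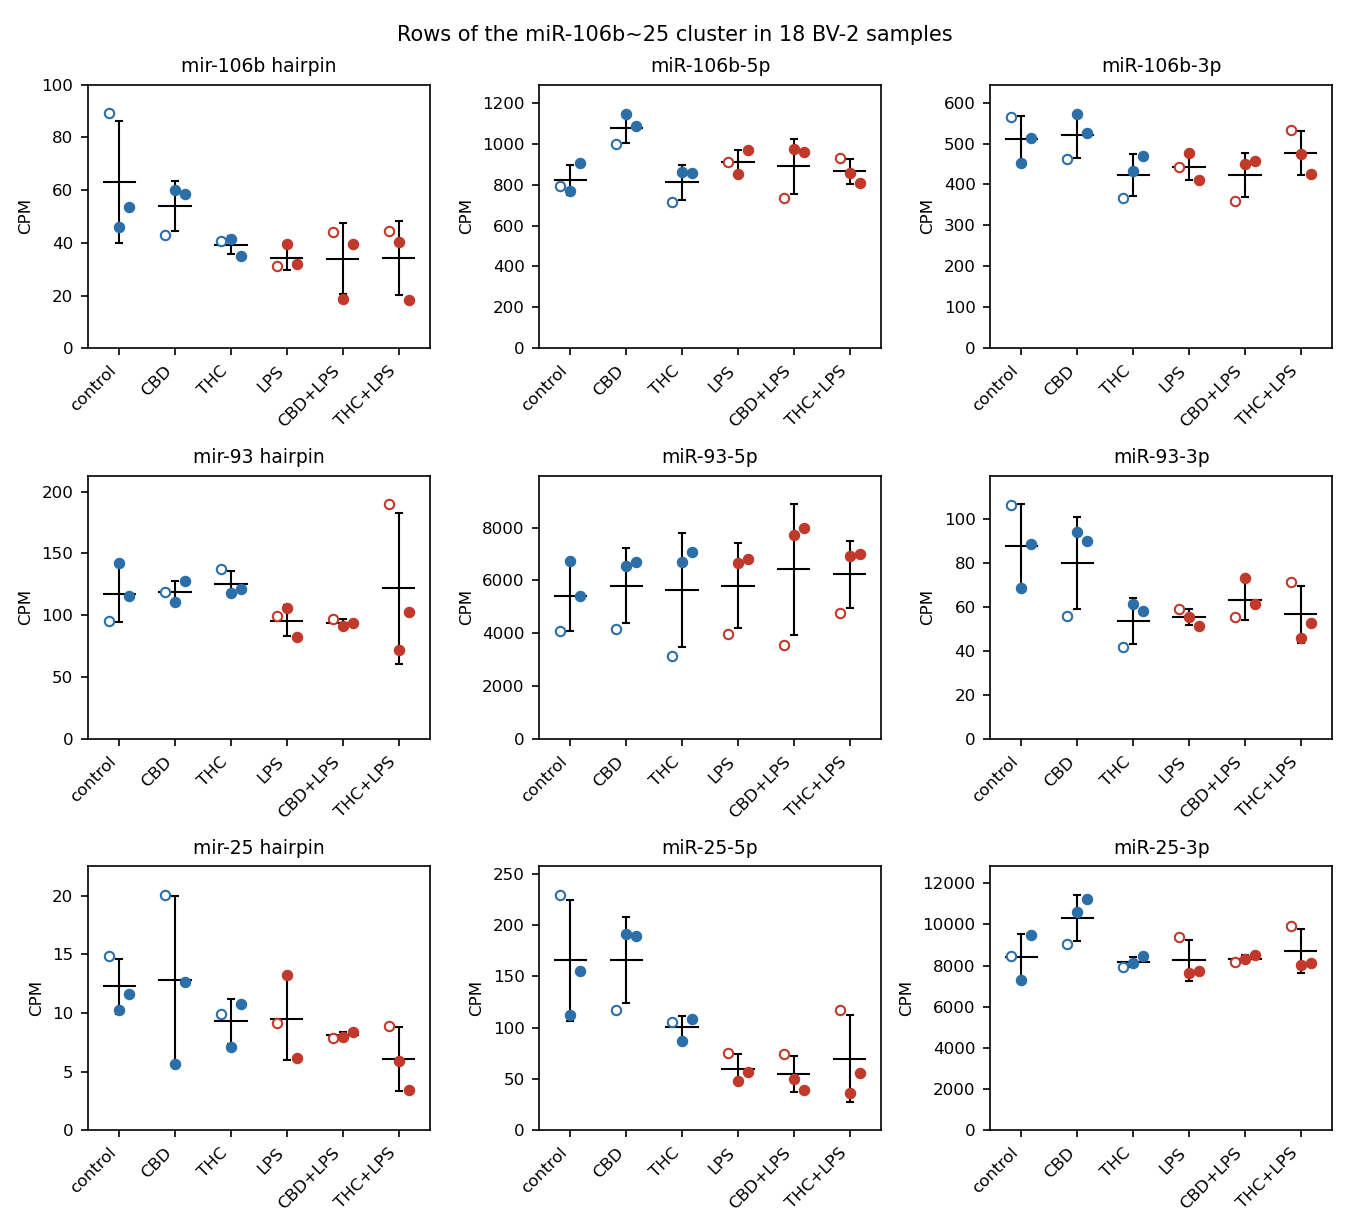
Levels of the 9 rows of the cluster in CPM (y axis, each from 0) in the 18 samples, by group (x axis). Blue points are samples without LPS and red points samples with LPS, open points are samples 22 to 27, and bars and whiskers are the mean and SD of 3 samples. miR-25-5p is low in the LPS groups, and the open points of miR-93-5p, at 3157 to 4758 CPM, lie below its filled ones.

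The row of the cluster that moved with LPS was miR-25-5p, the scarce arm of mir-25. Over all LPS samples it fell by 57.3%, while miR-25-3p, the abundant arm of the same hairpin, did not pass the test. In control cells the 3 samples had 230, 113 and 155 CPM, and in LPS-treated cells 75.8, 47.7 and 56.6 CPM. All LPS samples lay below all control samples. How many of all features separate 2 groups of 3 samples in this way was not counted. With CBD alone it was at 118, 192 and 190 CPM, and with CBD+LPS at 74.4, 50.5 and 39.6 CPM, again without overlap. With THC alone it was at 105, 87.3 and 108 CPM, and with THC+LPS at 117, 36.6 and 56.2 CPM. Here sample 27 of THC+LPS was above all THC samples and the other two were below them. Behind these values stood 31 to 133 reads of miR-25-5p per sample.

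In the order of the group means, miR-25-5p was at 166 ± 42.2 CPM with CBD, 166 ± 59.2 in control cells, 100.3 ± 11.3 with THC, 70.0 ± 42.1 with THC+LPS, 60.1 ± 14.4 with LPS and 54.8 ± 17.8 with CBD+LPS (mean ± SD, n = 3). No neighbours in this order differed beyond the criterion used here for comparisons of 2 groups, which asks for 1.5-fold or more and an unadjusted p no higher than 0.005. The step from control to THC was -0.67 on the log2(CPM + 1) scale (limma, adjusted p = 0.977) and that from THC to THC+LPS -0.67 (limma, adjusted p = 0.897).

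Against control, 1 of the 9 rows was called with LPS, where 1.54% of the 1363 tested features were called, and 0.147% were called lower. This was miR-25-5p, with a log2 fold change of -1.42 ± 0.38 (SE, limma, adjusted p = 0.143 by Benjamini-Hochberg over all tested features). With CBD+LPS 1 of 9 was called, against 1.39% of all features (0.367% lower), and miR-25-5p had a log2 fold change of -1.57 (limma, adjusted p = 0.115). With THC+LPS 1 of 9 was called, against 1.83% of all features (0.220% lower), and miR-25-5p had -1.34 (limma, adjusted p = 0.201). These 3 comparisons share the control samples. At an adjusted p of 0.1 none of them would be called, where 1.03%, 0.440% and 0.734% of all features were. With a covariate for samples 22 to 27 all 3 would be, at the same fold changes (limma, adjusted p = 0.0430, 0.0275 and 0.0721). The call for LPS alone was lost without control 22 (-1.15), control 34 (-1.43), LPS 29 (-1.27) or LPS 35 (-1.39).

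Comparisons of LPS within a cannabinoid, added after the data were seen, have their own baselines. With CBD+LPS against CBD 1 of 9 was called, where 1.61% of all features were called (0.734% lower), and miR-25-5p had a log2 fold change of -1.60 ± 0.38 (SE, limma, adjusted p = 0.0673, where 1.10% of all features were at 0.1 or lower). With library composition as a covariate it was -0.98 (limma, adjusted p = 0.368), short of the criterion. With THC+LPS against THC 0 of 9 rows were called, against 1.39% of all features, and 0 had an unadjusted limma p of at most 0.05, against 4.77% of all features, with 0 calls by edgeR and DESeq2 too. There miR-25-5p had -0.67 (95% interval -1.48 to 0.14), and in samples 28 to 39 alone -1.08 (limma, adjusted p = 0.0581), which met the criterion.

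Over all 9 samples with LPS against the 9 without, in a model with cannabinoid treatment as an additive term and an adjusted p of at most 0.1 as threshold, 1 of the 9 rows was called, where 1.54% of all features were called (0.220% lower). miR-25-5p was at 36.6 to 117 CPM with LPS (median 56.2) and at 87.3 to 230 CPM without (median 118). Its log2 fold change was -1.23 ± 0.23 (SE, 95% interval -1.71 to -0.75, limma, adjusted p = 0.00316), a 2.34-fold lower level. All LPS samples but THC+LPS 27 lay below all samples without LPS. Of all tested features, 0% lay wholly lower with LPS and 0.954% wholly higher. The share that separated in all but 1 sample is not given here. An exact permutation test of the LPS labels within each cannabinoid treatment gave a p of 0.001, where 0.00025 is the smallest that its 8000 arrangements can give. Of the 9 rows only miR-25-5p was permuted, and this p is not adjusted for that choice.

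The call held without each of the 18 samples in turn, with values of -1.40 to -1.14, and in samples 28 to 39 alone (-1.49, limma, adjusted p = 0.000116). The 4 libraries with the lowest composition share were also the highest samples of miR-25-5p in their parts of the design, with control 22, CBD 30 and CBD 36 highest without LPS and THC+LPS 27 highest with it. With the log2 level of these rows as a covariate the effect was -1.05 (limma, adjusted p = 0.000261). The other 8 rows of the cluster were not called.

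**Figure D2:**
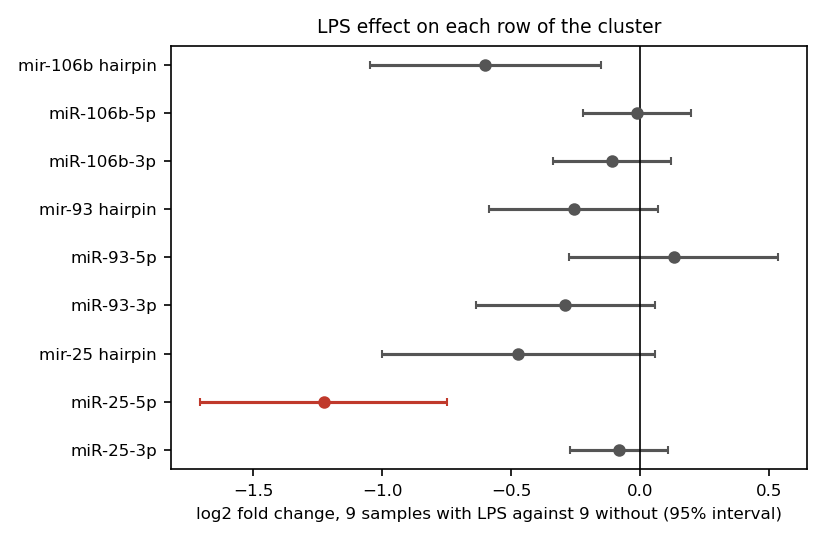
Log2 fold change of each row of the cluster (y axis) for the 9 samples with LPS against the 9 without (x axis), with limma's 95% interval and cannabinoid treatment as an additive term. The called row is in red, and only its point, at -1.23, lies beyond -1.

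Of the other rows, 7 had lower and 1 had a higher fitted level with LPS, where 46.9% of all tested features were lower. The median log2 fold change was -0.26 over the 9 rows and 0.03 over all features, and with scaling by library size alone or by reference miRNAs (miR-191-5p and miR-103-3p) the median of all features was -0.08 and -0.12. The second in size was the hairpin row of mir-106b, at -0.60 (95% interval -1.05 to -0.15, limma, adjusted p = 0.365). It was at 89.3, 46.2 and 53.6 CPM in control and at 31.4, 39.7 and 31.9 CPM in LPS samples, which rest on 24 to 46 reads each. The hairpin row of mir-25 was at -0.47 (-1.002 to 0.056), on 3 to 14 reads per sample, at or near the floor. The hairpin row of mir-93 was at -0.26 (-0.58 to 0.07).

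miR-25-3p was at 8447, 7310 and 9491 CPM in control and at 9403, 7623 and 7734 CPM in LPS samples, which overlapped. It was at 8176, 8329 and 8517 CPM with CBD+LPS and at 9920, 8006 and 8134 CPM with THC+LPS. Over all LPS samples its log2 fold change was -0.08 (95% interval -0.27 to 0.11, limma, adjusted p = 0.927), an interval that lies wholly above that of miR-25-5p.

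The pair with a common seed was not called either. miR-106b-5p was at 791, 768 and 904 CPM in control and at 910.1, 850.0 and 971 CPM in LPS samples, with a log2 fold change over all LPS samples of -0.01 (95% interval -0.22 to 0.20, limma, adjusted p = 0.985). miR-93-5p was at 4081, 6718 and 5402 CPM in control and at 3971, 6656 and 6793 CPM in LPS samples, with 0.13 (-0.28 to 0.53). In miR-93-5p the spread within groups followed the sample numbers. The 6 samples 22 to 27 had 3157 to 4758 CPM and the 12 samples 28 to 39 had 5402 to 7986 CPM over all groups, and its interval was the widest of the abundant members.

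The minor arms of the other hairpins were at -0.11 (-0.34 to 0.12) for miR-106b-3p and -0.29 (-0.64 to 0.06) for miR-93-3p. miR-93-3p had 106.3, 68.4 and 88.5 CPM in control and 58.8, 55.6 and 51.5 CPM in LPS samples, and the difference of -0.64 missed the criterion (limma, adjusted p = 0.784). Set against each other within a sample, miR-25-5p had 1.96 ± 0.325 reads per read of miR-93-3p without LPS and 1.05 ± 0.336 with LPS (mean ± SD, n = 9). Per read of miR-106b-3p it had 0.292 ± 0.0661 without LPS and 0.138 ± 0.0513 with LPS.

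The arms of a hairpin are cut from the same molecule, and their ratio within a library does not depend on how libraries are scaled. In control cells there were 36.8, 64.8 and 61.2 reads of miR-25-3p per read of miR-25-5p, and in LPS-treated cells 124, 160 and 137. With CBD the ratios were 77.0, 55.4 and 59.3, and with CBD+LPS 110, 165 and 215. With THC they were 75.4, 92.8 and 78.3, and with THC+LPS 84.6, 218 and 145. All 9 samples with LPS but THC+LPS 27, whose 84.6 was below THC 31, had a higher ratio than every sample without LPS. The share of all hairpins that separated in this way is not given here.

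The mean ratio was 66.8 ± 16.2 without LPS and 151 ± 44.8 with LPS (SD, n = 9). In the additive model, fitted to log2((5p + 1)/(3p + 1)) of every hairpin with both arms tested, mir-25 had a log2 change of the 5p to 3p ratio of -1.15 ± 0.18 (SE, 95% interval -1.51 to -0.78, limma, adjusted p = 5.75e-05), 2.21-fold more 3p per 5p. It was 1 of 8 hairpins called, 4.19% of those tested, and ranked 4 by p. An exact permutation test of the LPS labels within each cannabinoid treatment gave a p of 5e-04. Among the other hairpins called, mir-155, mir-21a, mir-20a, mir-146a and mir-27a changed towards the 3p arm, as mir-25 did, and mir-222 and mir-221 towards the 5p arm. This direction is by arm label, and which arm is scarce differs. The 5p arms of mir-155, mir-146a and mir-20a had means of 4608, 8645 and 1822 CPM. Their scarcer arms had a mean log2(CPM + 1) of 6.23, 3.68 and 8.08. In these hairpins the shift was towards the scarce arm, and in mir-25 away from it. The scarce arms of the rest are not given here. The largest change among those called was that of mir-155, the hairpin of an miRNA long known to be induced by LPS, at -1.58.

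**Figure D3:**
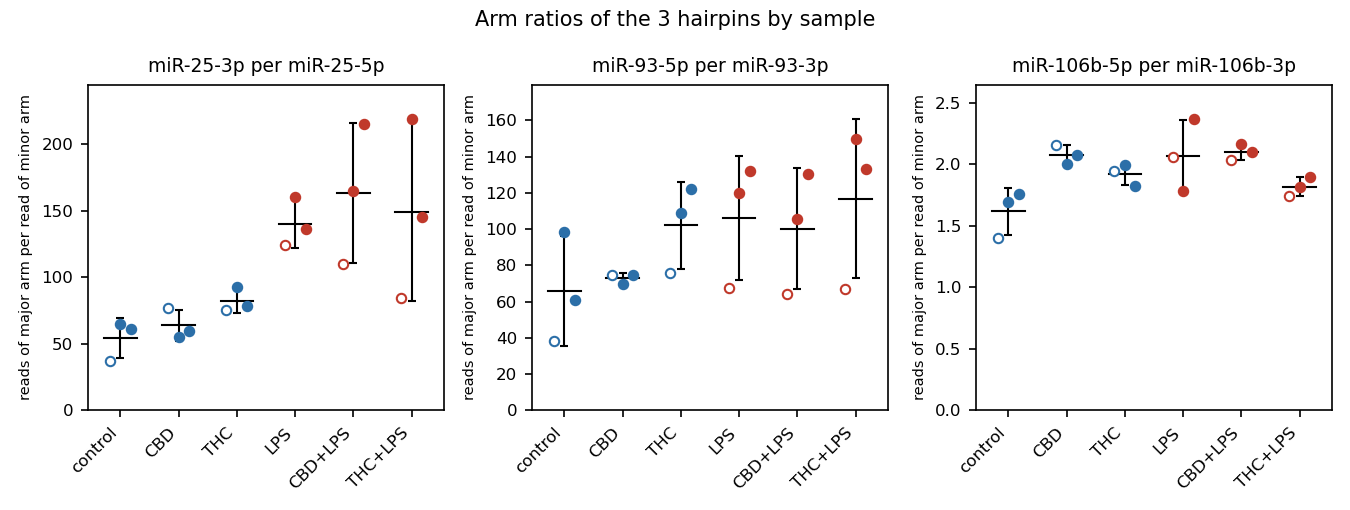
Reads of the major arm per read of the minor arm (y axis, from 0) of the 3 hairpins in the 18 samples, by group (x axis), with symbols, bars and whiskers as in the plot of levels. For mir-25 the LPS groups lie at 84.6 to 218 and the others at 36.8 to 92.8. For mir-93 they lie at 64.4 to 150 and 38.4 to 122, and for mir-106b at 1.74 to 2.36 and 1.40 to 2.16. In mir-106b control lies at 1.40 to 1.76 and LPS alone at 1.78 to 2.36.

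Against control, the ratio of mir-25 changed by -1.39 with LPS (limma, adjusted p = 0.00863), by -1.56 with CBD+LPS (adjusted p = 0.00329) and by -1.38 with THC+LPS (adjusted p = 0.0136), where 3.14%, 2.62% and 2.09% of hairpins met the criterion, again with shared controls. It changed by -1.30 between CBD+LPS and CBD (limma, adjusted p = 0.0117, with 3.66% of hairpins called), and the difference between THC+LPS and THC, -0.75, missed the criterion (limma, adjusted p = 0.610, with 1.57% called). With CBD alone the difference from control was -0.26 (limma, adjusted p = 0.928) and with THC alone -0.63 (limma, adjusted p = 0.877), both short of the criterion, which 0.524% and 0% of hairpins met. For the other hairpins of the cluster the change over all LPS samples did not pass the threshold. mir-93, whose major arm is 5p, was at 0.42 (95% interval -0.0022 to 0.84, limma, adjusted p = 0.640), and mir-106b at 0.10 (-0.08 to 0.27, adjusted p = 0.842). In samples 28 to 39 alone mir-25 was at -1.32 (limma, adjusted p = 1.81e-06) and mir-93 at 0.56 (limma, adjusted p = 0.0196), past the threshold in this subset. There mir-93 also met the criterion for THC+LPS against control (0.86, limma, adjusted p = 0.0558). So did mir-25 for THC+LPS against THC (-1.04, limma, adjusted p = 0.0153). With runs of consecutive sample numbers as a block, mir-93 met it for THC+LPS against control too (0.84, limma, adjusted p = 0.0697). The share of all hairpins called in this subset or with the block is not given here, so that these calls cannot be weighed against it.

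The ratios of the other hairpins are also of different size. miR-93-5p had 65.9 ± 30.2 reads per read of miR-93-3p in control and 106.4 ± 34.2 with LPS (SD, n = 3), and over all samples it ranged from 38.4 to 150. For mir-106b the arms were nearer to each other in level, with 1.93 ± 0.221 reads of 5p per read of 3p over the 18 samples, 1.62 ± 0.192 in control and 2.07 ± 0.293 with LPS. Control 22 had the lowest ratio of all 3 hairpins.

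**Figure D4:**
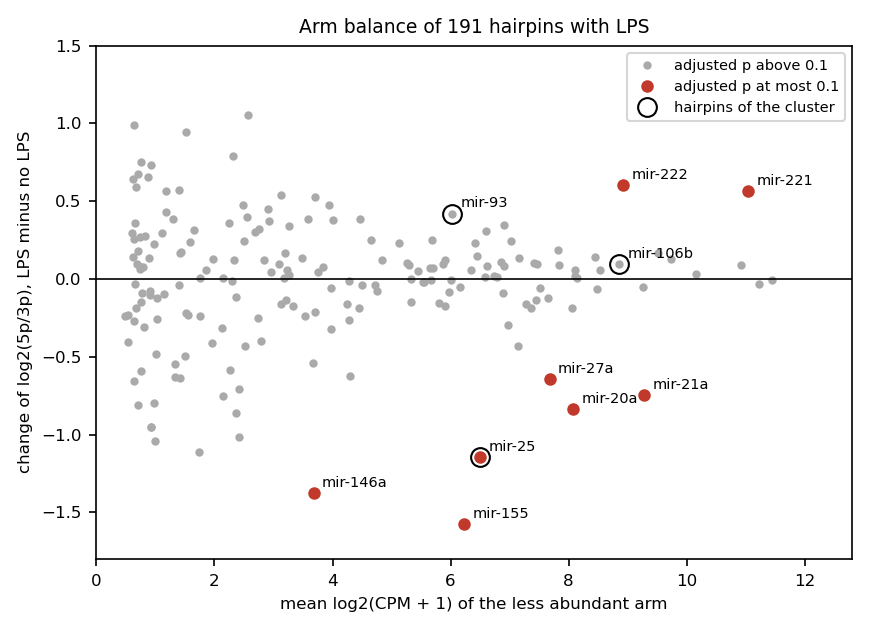
Change of the log2 ratio of the 5p to the 3p arm for the 9 samples with LPS against the 9 without (y axis) against the mean log2(CPM + 1) of the less abundant arm (x axis) for the hairpins with both arms tested. Each point is a hairpin, and the 8 that passed an adjusted p of 0.1 and the 3 hairpins of the cluster are marked, with mir-25 at -1.15.

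With cannabinoids alone no row of the cluster was called, with 0 of 9 for CBD against control, where 1.61% of all features were called, and 0 of 9 for THC against control, where 0.440% were (limma). Each had 1 row at an unadjusted p of at most 0.05, against 9.17% and 3.37% of all features, and edgeR and DESeq2 called 0 as well. For CBD this row was miR-106b-5p, which was at 999.5, 1145 and 1087 CPM, with a log2 fold change of 0.39 (95% interval 0.05 to 0.74, limma, adjusted p = 0.458). Over the alternatives this fold change ranged from 0.20 to 0.42. For THC the row was miR-93-3p, which was at 41.8, 61.4 and 58.1 CPM, with -0.69 (-1.28 to -0.11, limma, adjusted p = 0.977). miR-25-5p differed from control by 0.03 (-0.78 to 0.84) with CBD and by -0.67 (-1.47 to 0.14) with THC.

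In LPS-treated cells the cannabinoids gave no call either. With CBD+LPS against LPS 0 of 9 rows were called, where 0.220% of all features were, and with THC+LPS against LPS 0 of 9, where again 0.220% were (limma, with 0 rows at an unadjusted p of at most 0.05 against 3.23% and 2.35% of all features, and 0 calls by edgeR and DESeq2). For miR-25-5p the differences were -0.15 (95% interval -0.96 to 0.66) and 0.08 (-0.73 to 0.89), and for miR-25-3p 0.02 (-0.29 to 0.34) and 0.07 (-0.24 to 0.39). The intervals of miR-25-5p leave room for differences in either direction.

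The cannabinoids share the dose of 10 μM and the time of 6 h, and differ in that THC has a closed pyran ring where CBD has a free hydroxyl group. CBD against THC called 0 of 9 rows, where 3.30% of all features were called, and CBD+LPS against THC+LPS 0 of 9, where 0.147% were (limma, with 2 and 0 rows at an unadjusted p of at most 0.05 against 16.2% and 2.64% of all features, and 0 calls by edgeR and DESeq2). These are 2 pairs for each row, and the adjusted p-values are over all features of a pair. miR-106b-5p was higher by 0.41 with CBD than with THC (95% interval 0.07 to 0.76, limma, adjusted p = 0.191), with 714, 859 and 858 CPM in THC. miR-25-3p was at 9052, 10617 and 11246 CPM with CBD and at 7945, 8102 and 8463 CPM with THC, a difference of 0.33 (0.01 to 0.64, limma, adjusted p = 0.285). Neither passed the criterion. CBD 30 and CBD 36, with the lowest composition shares of the 18 libraries, were the highest samples of both rows.

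miR-25-5p was higher by 0.70 with CBD than with THC (95% interval -0.113 to 1.504, limma, adjusted p = 0.391). In samples 28 to 39 alone the difference was 0.96 (limma, adjusted p = 0.0148), past the criterion, in a subset in which 11.6% of all features were called for this pair. It rests on CBD 30 and CBD 36, the only CBD samples of this subset, whose composition share was the lowest of the 18 libraries. CBD and composition cannot be told apart there. With composition as a covariate over all samples the difference between CBD and THC was -0.05 (limma, adjusted p = 0.980). The cause of this change was not tested. With LPS present the pair differed by -0.23 (-1.04 to 0.58).

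Over the 5 treatment effects together, limma's F test called 1 of 9 rows at an adjusted p of at most 0.1, where 1.76% of all features were called. The row was miR-25-5p (adjusted p = 0.0614). The call was lost without any of 9 samples, with adjusted p-values of 0.104 without control 22, 0.135 without control 34, 0.140 without LPS 29, 0.131 without LPS 35, 0.197 without CBD 30, 0.200 without CBD 36, 0.121 without CBD+LPS 32, 0.135 without CBD+LPS 38 and 0.119 without THC+LPS 39. The interactions asked whether LPS acted differently in cells given a cannabinoid. For both CBD and THC 0 of 9 rows were called and 0% of all features (limma, adjusted p of at most 0.1), with 0 rows at an unadjusted p of at most 0.05, against 4.77% and 3.74% of all features, and 0 calls by edgeR and DESeq2. For miR-25-5p the interaction was -0.18 ± 0.54 with CBD and 0.75 ± 0.54 with THC (SE, limma, adjusted p = 0.989 and 0.935).

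The cluster has paralogues in the miR-17~92 cluster of Mir17hg and in an X-linked cluster, and shares its seeds with them. A list of 21 such relatives, 9 mature miRNAs with the same seeds and 12 hairpins, was drawn up, of which all 21 were in the files and 15 were tested. In LPS against control 1 of 15 was called, in the higher direction, where 1.39% of all features were called higher, with a median log2 fold change of 0.05 over the list and 0.11 over all features. This was the hairpin row of mir-20a, which was also higher over all LPS samples, at 1.24 (limma, adjusted p = 3.91e-05).

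The mature miRNAs with the seeds of the cluster were not called. miR-92a-3p, with the seed of miR-25-3p, had a mean of 133070 CPM and was at -0.13 over all LPS samples (limma, adjusted p = 0.927). miR-17-5p, with the seed of miR-93-5p and miR-106b-5p, had 3482 CPM and was at -0.04 (limma, adjusted p = 0.952). The most abundant miRNA with each seed was thus miR-92a-3p for AUUGCAC, outside the cluster, and miR-93-5p for AAAGUGC, within it. Close sequences can share reads, since miR-25-3p and miR-92a-3p differ by an edit distance of 4 bases and miR-93-5p and miR-17-5p by 3, and how reads that mapped to several rows were counted is not given in the sources used here.

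Members of the cluster did not vary together as a block across the 18 samples, which share library depth and composition, and the correlations are given as a description. The arms of mir-25 had a Pearson correlation of log2(CPM + 1) of 0.58, those of mir-106b 0.57 and those of mir-93 0.11. miR-93-5p and miR-25-3p, the abundant pair, had -0.08. Larger values were found for miR-106b-3p with miR-93-3p (0.79), the hairpin row of mir-106b with miR-25-5p (0.71), miR-106b-5p with miR-25-3p (0.71) and miR-93-3p with miR-25-5p (0.70).

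Among 586 candidate rows the most like miR-25-5p by this measure were miR-212-3p (0.90), miR-27a-5p (0.85) and miR-128-3p (0.85). For miR-25-3p they were miR-17-5p (0.91), miR-30a-5p (0.90) and miR-20a-5p (0.89), and for miR-106b-5p they were miR-15b-5p (0.90), mir-3096a (0.78) and miR-30a-5p (0.74). For miR-93-5p they were miR-342-3p, miR-210-3p and miR-181a-5p, each at 0.97. In miR-93-5p the correlation spans samples 22 to 27 and 28 to 39, which did not overlap.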

How the data were processed

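By the study's methods, mouse miRBase sequences were the target of a BWA alignment, with up to 10 mappings allowed per read, and edgeR was used on the counts of known miRNAs. The authors deposited CPM, in which reads are scaled by library size and TMM. The TMM scaling lifts the sum of the deposited values above a plain CPM total in 11 samples, which were recorded as signal although they hold the same quantity. Within a sample, the values come in steps of 1 read, with 100% of them whole within 0.01 reads, and the reads so recovered gave back the deposited scale. Treatment times and doses are those of the labels and the study's methods.

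The values were fitted as log2(CPM + 1) by limma 3.58.1 in R 4.3.3, with a mean-variance trend, over the 1363 features that had 10 or more reads in all, in a model of the 6 groups and in an additive model of LPS and cannabinoid. A fold change on this scale understates that of low rows. Arm ratios were fitted the same way over the hairpins with both arms tested, with the trend on the less abundant arm. Adjusted p-values are Benjamini-Hochberg over all features fitted, and tests are 2-sided. The alternatives were edgeR 4.0.16 quasi-likelihood and DESeq2 1.42.0 on the recovered reads, which called 22 and 31 features for LPS over all samples where limma called 21, other scalings, filters and pseudocounts, covariates for samples 22 to 27 and for library composition (log2 of the CPM sum of mir-6240, mir-6236 and mir-6243), samples 28 to 39 alone, a block for runs of consecutive sample numbers (added after the data were seen), and each sample left out. The fits were tested on simulated data. All 9 members are named, as are the listed relatives that were called and the most abundant ones, and the 3 rows most like each abundant mature member. The members, the lists and the alternatives were chosen with earlier results of these data known. The intervals of reads cover counting error only.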

Additional observations from a re-analysis of the deposited data

How the results depend on the processing

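The lower level of miR-25-5p over all LPS samples passed an adjusted p of 0.1 under all 14 alternatives (-1.49 to -1.05) and without each sample, and the arm ratio of mir-25 under all 9 fitted alternatives (-1.32 to -1.02), under permutation and without each sample (-1.27 to -1.06). The ratio is built on the same values of miR-25-5p, so that it is not an independent result. The comparisons of 2 groups were less stable. With an adjusted p of 0.1 as threshold, 0 of 9 rows were called for LPS, CBD+LPS and THC+LPS against control, and 0 for THC+LPS without a mean-variance trend. Leaving out single samples gave 0 to 1 for these 3 comparisons. For CBD+LPS the call was lost without control 22 (-1.30) or CBD+LPS 38 (-1.36), and for THC+LPS without control 22 (-1.07), control 34 (-1.35), THC+LPS 33 (-0.96) or THC+LPS 39 (-1.26). The adjusted p of miR-25-5p for LPS against control (limma, edgeR and DESeq2) ranged from 0.00625 to 0.257 over the alternatives and from 0.0496 to 0.589 without single samples.

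The count for CBD+LPS against CBD was 0 with library composition as a covariate. In samples 28 to 39 alone it was 1 for CBD against THC and 1 for THC+LPS against THC, both miR-25-5p, where 11.6% and 1.32% of all features were called. The F test called 0 with scaling by reference miRNAs, 0 without a trend, 0 to 1 without single samples, and 3 in samples 28 to 39 alone, namely miR-25-5p, miR-93-3p and miR-25-3p, in a subset where 18.2% of all features were called. The cause of these changes was not tested. No called direction changed. The groups share no sample number, but the numbers fall into 3 runs of 6 (22 to 27, 28 to 33 and 34 to 39) with 1 sample of every group, and a fit with these runs as a block was added after the data were seen. With the block the count of called rows of the cluster was the same in every comparison, miR-25-5p over all LPS samples stayed at -1.23 (limma, adjusted p = 0.00114), and the features called for LPS over all samples rose from 21 to 33. Deviations from the group means correlated at -0.43 to 0.54 within a run (median 0.06), with 16 of 45 pairs over 0.1. Pairs of different runs and groups had -0.46 to 0.38 (median -0.03), with 20 of 90 over 0.1. Within samples 22 to 27, 9 of 15 pairs were over 0.1, against 3 and 4 of 15 in the later runs. Among the samples of other groups 8 of 18 samples correlated best with one of their own run. Whether the runs are replicates was not tested. With 3 to 14 reads per sample in the hairpin row of mir-25, a change of that row could hardly be seen at this depth.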
